A study of Mus musculus with 6 samples.

Results

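The genes described here are 33 mouse genes of fibroblasts and of the extracellular matrix, chosen by symbol from a list of collagens, other matrix proteins, matrix-modifying enzymes and fibroblast or stellate cell markers. They are 33 of the 55401 gene identifiers in a table of raw read counts from pancreatic islets. The rule uses no measured value, but the genes were listed with earlier results of these data known. All 33 were found in the table, and 32 passed a filter on low counts that left 14212 genes to test. The exception, Timp1, an inhibitor of matrix metalloproteinases, had 3, 3 and 2 counts in the controls and 1, 0 and 13 in the KO libraries.

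The islets came from C57BL/6 males of about 20 weeks of age. In the 3 control libraries the mice were Pdgfra fl/fl and had no Cre. In the 3 KO libraries they were Pdgfra fl/fl with Pdx1-Cre. All animals thus carried floxed Pdgfra, which encodes a receptor for platelet-derived growth factors. The Pdx1 promoter drives Cre in the pancreatic epithelial lineage, from which islet endocrine, acinar and duct cells arise. Mice with Cre and unfloxed Pdgfra are not among the samples analysed here, so an effect of Cre and an effect of losing Pdgfra cannot be told apart. Beta cell is the labelled cell type, and no sorting of cells is described. The titles number the mice without stating that each library is a different animal, so p-values here refer to library-to-library spread, part of which may be technical. In the deposited table the columns of all 3 KO libraries share a name ending that the control columns lack and that is not explained, and anything it marks cannot be told apart from genotype.

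Fibrillar collagens (types I, III and V) form the cable-like fibrils of interstitial connective tissue, and collagen VI forms finer beaded filaments around cells. Collagen IV is the sheet-forming collagen of basement membranes, which in islets surround the capillaries. Fibroblasts and stellate cells make most interstitial matrix of the pancreas, endothelial cells and pericytes contribute much of the vascular basement membrane, and endocrine cells make little of either.

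Library totals ran from 15026094 to 25299689 counts. The labelled cell type was present but not alone. Ins2, the more abundant of the insulin genes, stood between 54693 and 87432 CPM (a gene's counts divided by the library's effective size and put on the usual common scale, where edgeR's TMM factors adjust that size for library composition). The summed level of 15 acinar enzyme and transcription factor genes ran from 147289 CPM in KO 3 to 428686 CPM in control 1. KO 2 stood apart from the other libraries in the matrix genes, and the differences between genotypes are also given without it, by gene or by role group. An annotated ribosomal RNA locus, CT010467.1, stood at 143835 CPM in KO 2 and 175943 CPM in KO 3, against 31435 to 52851 CPM in the other 4 libraries. Its part in the results was not tested. The targeted gene, Pdgfra, which is itself a fibroblast marker, had 3.37, 5.13 and 3.82 CPM in the controls and 3.73, 1.56 and 4.76 CPM in KO 1, KO 2 and KO 3 (log2 fold change -0.26, SE 0.34, edgeR adjusted p = 0.869). The groups overlapped. The count covers all exons, so it does not check the deletion of a floxed part, and islets hold Pdgfra-expressing cells outside the Pdx1 lineage.

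Some of the genes lie side by side in the genome, and the sequences shown here belong to pairs whose counts are compared further on. Col4a1 (chromosome 8, 11198423 to 11312826, minus strand, GRCm38) and Col4a2 (11312805 to 11449287, plus strand), which encode the chains of the most common collagen IV trimer, are transcribed away from each other from starts so close that 22 bases at chr8:11312805-11312826 are transcribed in both. These bases, from RefSeq on GRCm38.p6 and read on the plus strand, are given in capitals because all of them are shared.

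Col4a1 and Col4a2: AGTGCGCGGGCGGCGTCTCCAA

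Col6a1, Col6a2 and Col6a3 encode the 3 chains of the main collagen VI molecule. Col6a1 and Col6a2 lie 85.2 kb apart on chromosome 10, and Col6a3 lies on chromosome 1. The 250 bases before the start of Col6a2 (chr10:76623631-76623880) and of Col6a3 (chr1:90843972-90844221), both on the minus strand, are shown because the counts of these chains parted in 1 library. They are from RefSeq on GRCm38.p6, 5′ to 3′ in the direction of transcription. Capitals mark GGGCGG, the core letters of a GC box, or its reverse complement CCGCCC.

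Col6a2: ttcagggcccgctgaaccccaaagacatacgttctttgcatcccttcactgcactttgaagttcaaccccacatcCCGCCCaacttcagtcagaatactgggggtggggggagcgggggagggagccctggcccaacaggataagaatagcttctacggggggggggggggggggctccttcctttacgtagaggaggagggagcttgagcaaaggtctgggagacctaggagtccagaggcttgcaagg

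Col6a3: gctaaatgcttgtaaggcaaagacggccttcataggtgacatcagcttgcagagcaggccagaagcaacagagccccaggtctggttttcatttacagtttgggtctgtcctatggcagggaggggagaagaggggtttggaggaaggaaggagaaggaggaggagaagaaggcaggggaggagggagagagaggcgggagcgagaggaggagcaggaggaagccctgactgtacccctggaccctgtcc

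The Col6a2 window held 1 GGGCGG on either strand and the Col6a3 window 0. Their GC contents were 59.2% and 57.2%, beside a median of 52.4% over all 32851 windows. Of the 33 genes, 23 had windows in the RefSeq table, 28 in all. GGGCGG was in 16 of these 28 (57.1%), beside 32.7% of all windows, and CCAAT (either strand), the core of a CCAAT box, in 9 (32.1%), beside 33.8%. A match is a description of letters only.

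Together the 33 genes took between 0.0333% of counts in KO 2 (95% Wilson interval 0.0325 to 0.0341%) and 0.117% in control 2 (0.115 to 0.118%). These intervals cover counting error only. Their summed level was 875, 1107 and 816 CPM in controls 1, 2 and 3, and 841, 379 and 1032 CPM in KO 1, KO 2 and KO 3. KO 2 was the lowest library, KO 1 and KO 3 lay within the range of the controls, and the groups overlapped. The means were 933 ± 154 CPM in controls and 751 ± 336 CPM in KO (SD, n = 3 each), which did not differ beyond the spread (exact two-sided permutation test p = 0.5, where 0.1 is the smallest p that 3 against 3 libraries allow). Without KO 2 the KO mean was 936 CPM (exact permutation p = 1). In bulk RNA a library with fewer fibroblasts and a library with less matrix RNA per fibroblast cannot be told apart.

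No gene of the set passed the test between the genotypes. In the edgeR quasi-likelihood test with Benjamini-Hochberg adjustment over all 14212 genes, 0 of 32 passed an adjusted p of 0.05, where 0.0704% of all genes did (10 genes, of which 9 lower in KO, or 0.0633%). The lowest adjusted p of a matrix gene was 0.689. At an unadjusted p under 0.05 the count was also 0, beside 7.37% of all genes. No member had groups that did not overlap, against 13.9% of all genes. The log2 fold change, KO minus control, was negative for 30 of 32 genes, beside 52.2% of all genes, and its median was -0.30, beside -0.01 over all genes tested. Without KO 2, 14 of the 32 were negative and 18 positive (51% of all genes were negative), and the median was 0.01. Without control 2 the median was -0.11, with 21 negative, and without KO 3 it was -0.64.

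The count of 0 was the same with DESeq2, where 0.359% of 13385 genes passed, and with limma-voom. Without the filter on low counts 4 of the 32 passed, where 1.14% of 26297 genes did: Col1a1 (log2 fold change -0.61, SE 0.12, edgeR adjusted p = 1.21e-04), Col3a1 (adjusted p = 0.00108), Serpinf1 (0.0144) and Col1a2 (0.0465). In that fit edgeR's prior degrees of freedom were infinite (5.39 with the filter), so that each gene took the spread of the trend over all genes in place of its own, and Col1a1 had an SE of 0.12 in place of 0.60, although its level ranged 12.8-fold over the same libraries.

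**Figure D1:**
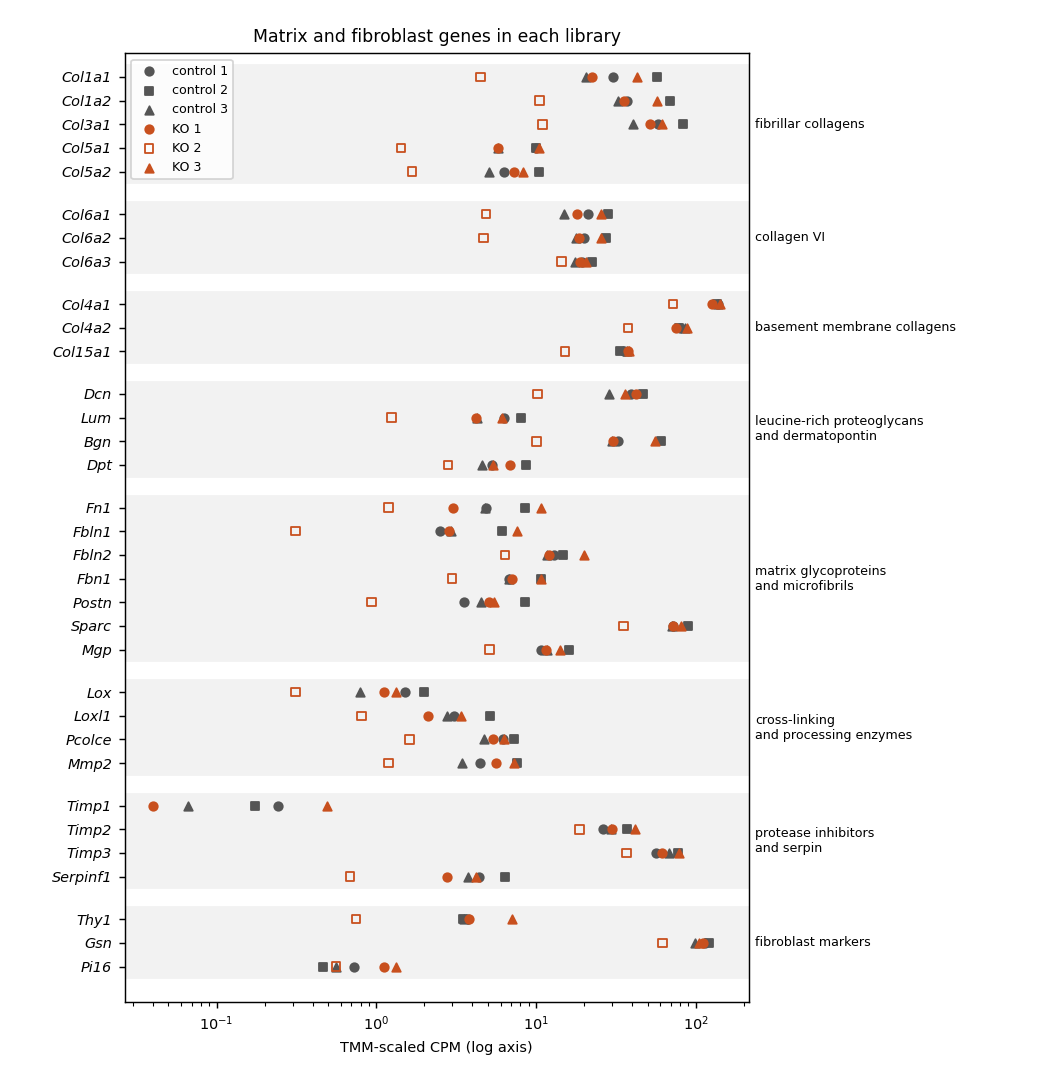
Level of each of the 33 genes in each library, in TMM-scaled CPM on a log axis, grouped by role. Grey symbols are controls and orange symbols KO libraries. The open squares (KO 2) are the leftmost point for every tested gene except Pi16. Timp1 had 0 counts in KO 2 and has no point there.

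The matrix genes varied between libraries of the same genotype. KO 2 was the lowest of the 6 libraries for 31 of 32 tested genes, where it was the lowest for 19.3% of all genes tested. The highest library was control 2 for 21 genes (11.9% of all genes) and KO 3 for the other 11 (25.8% of all genes). For 24 of the 32, the level in KO 2 was under 50% of the gene's own median over the 6 libraries, which held for 3.63% of all genes. The biological coefficient of variation, edgeR's estimate of the relative spread between libraries of a group beyond counting noise, had a median of 0.36 for the 32 genes and 0.128 for all genes. It was above the all-gene median for 32 of 32, from 0.129 for Col6a3 to 0.633 for Fbln1.

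The fibrillar collagens were the role group with the lowest median level in KO 2. Col1a1 (chromosome 11, 94936224 to 94953042), which encodes the alpha 1 chain of collagen I, the main collagen of scar and tendon, had 30.2, 57.5 and 20.7 CPM in controls 1, 2 and 3 and 22.3, 4.49 and 42.9 CPM in KO 1, 2 and 3. Col1a2, the partner chain, had 37.4, 69.4 and 32.5 CPM in the controls and 35.6, 10.5 and 57.5 CPM in the KO libraries. Col3a1, whose collagen III joins collagen I in extensible tissue, had 57.9, 83.7 and 40.8 CPM in the controls against 51.6, 11 and 61.2 CPM. In all 3 genes control 2 was the highest library, KO 2 the lowest, and the other KO libraries lay between controls, so the groups overlapped. The log2 fold changes were -0.60 (SE 0.60, edgeR adjusted p = 0.834) for Col1a1, -0.41 (SE 0.48, adjusted p = 0.859) for Col1a2 and -0.54 (SE 0.49, adjusted p = 0.819) for Col3a1. Without KO 2 these values were -0.14, 0.01 and -0.10.

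Collagen V is a minor fibrillar type that limits fibril diameter, and KO 2 was the lowest library for both of its genes. Col5a1 had 10, 9.96 and 5.80 CPM in the controls and 5.81, 1.43 and 10.5 CPM in the KO libraries, and Col5a2 had 6.34, 10.5 and 5.11 CPM against 7.25, 1.68 and 8.26 CPM. Of the 5 fibrillar collagen genes, 0 passed, with log2 fold changes from -0.60 to -0.30 and a median of -0.47. Without KO 2 their median was -0.04, with 3 negative and 2 positive. In KO 2 they stood at 17.1% (Col1a1) to 28.9% (Col1a2) of their own 6-library median, with a median of 20.1%, beside 100% over all genes.

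Collagen VI divided in KO 2. Col6a1 had 21.3, 28.3 and 15 CPM in the controls and 18.1, 4.87 and 25.6 CPM in the KO libraries. Col6a2 had 19.9, 27.6 and 17.8 CPM against 18.6, 4.68 and 25.6 CPM. Col6a3 had 19.3, 22.6 and 17.6 CPM against 18.9, 14.5 and 20.5 CPM. KO 2 was the lowest library for each, but at 24.7% and 24.3% of the 6-library median for Col6a1 and Col6a2 and at 76.1% for Col6a3. None passed (log2 fold changes -0.37, SE 0.45, -0.38, SE 0.44, and -0.13, SE 0.15, in that order, edgeR adjusted p from 0.846 to 0.860). Without KO 2 they were 0.03, 0.03 and -0.01. Col6a3 had the lowest spread between libraries of all 32 tested genes.

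The basement membrane collagens were less reduced in KO 2. Col4a1 had 139, 137 and 139 CPM in the controls and 127, 72.4 and 143 CPM in KO 1, KO 2 and KO 3. Col4a2 had 79.7, 78.2 and 86.4 CPM against 75.8, 37.7 and 88.2 CPM. Col15a1, which encodes a collagen of the basement membrane zone of capillaries and muscle, had 35.6, 33.5 and 37.2 CPM against 37.5, 15.2 and 38.2 CPM. The 5 libraries other than KO 2 lay close together for these genes, and control 2, which had the most of the fibrillar collagens Col1a1, Col1a2, Col3a1 and Col5a2, was not the highest here. In KO 2 they stood at 52.4%, 47.8% and 41.6% of their 6-library medians. The log2 fold changes were -0.28 (SE 0.21), -0.27 (SE 0.25) and -0.22 (SE 0.28), with edgeR adjusted p from 0.788 to 0.868, and without KO 2 they were -0.04, 0.01 and 0.09.

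**Figure D2:**
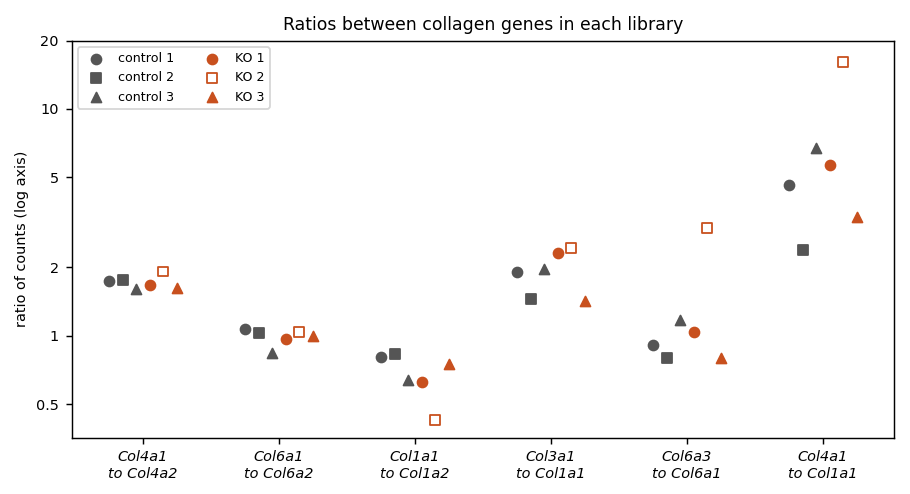
Ratio of the counts of 2 collagen genes in each library, on a log axis. The ratio of Col4a1 to Col4a2 stays between 1.61 and 1.92, while Col6a3 to Col6a1 and Col4a1 to Col1a1 reach their highest values, 2.99 and 16.1, in KO 2 (open square).

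Ratios of counts within a library do not depend on its scaling. The ratio of Col4a1 to Col4a2 was 1.74, 1.76 and 1.61 in the controls and 1.67, 1.92 and 1.62 in the KO libraries, a range of 1.19-fold over libraries in which both genes varied 1.98-fold and 2.34-fold. The ratio of Col6a1 to Col6a2 was nearly as even, at 1.07, 1.03 and 0.841 against 0.970, 1.04 and 0.999 (a range of 1.28-fold). Col1a1 to Col1a2 was 0.809, 0.829 and 0.636 in the controls and 0.626, 0.426 and 0.747 in the KO libraries. The chains of collagen IV, and the linked pair of collagen VI, thus kept their proportions from library to library more closely than the chains of collagen I, whose ratio had a range of 1.95-fold. Ratios between chains that did not keep pace moved in KO 2. Col6a3 to Col6a1 was 0.906, 0.798 and 1.17 in the controls and 1.04, 2.99 and 0.801 in the KO libraries. Col4a1 to Col1a1, a basement membrane gene over a fibrillar one, was 4.60, 2.39 and 6.73 against 5.69, 16.1 and 3.34. KO 2 was highest in both, and the range of the latter was 6.75-fold. These ratios are a description and were not tested.

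The leucine-rich proteoglycans decorate collagen fibrils and bind growth factors. Decorin (Dcn) had 39.5, 47.0 and 28.7 CPM in the controls and 42.3, 10.2 and 36.0 CPM in the KO libraries. Biglycan (Bgn) had 32.8, 60.8 and 30.1 CPM against 30.5, 10.1 and 55.9 CPM. Lumican (Lum), which regulates fibril spacing and lies 47.0 kb from Dcn on chromosome 10, had 6.34, 8.10 and 4.28 CPM against 4.21, 1.25 and 6.13 CPM. All 3 again had control 2 highest and KO 2 lowest. Dermatopontin (Dpt), a small protein that binds decorin, kept more of its level in KO 2, at 52.5% of its 6-library median, where Lum, Dcn and Bgn stood at 24.0%, 27.1% and 31.9%. None of the 4 passed. Lum had the most negative log2 fold change among them (-0.63, SE 0.43, edgeR adjusted p = 0.776), and the median of the 4 was -0.35. Without KO 2, Lum was at -0.25 and the median at 0.02, with 3 of 4 positive.

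The glycoproteins and microfibril proteins included the tested gene lowest in KO 2 relative to its own median. Fbln1, which encodes fibulin 1, a binding partner of fibronectin and elastic fibres, had 2.49, 6.12 and 2.93 CPM in the controls and 2.84, 0.312 and 7.65 CPM in the KO libraries. That is a 24.5-fold range, from 10.8% of the 6-library median in KO 2 to 265% in KO 3. The KO 2 value rests on 5 counts. The group means were close (log2 fold change -0.03, SE 0.70, edgeR adjusted p = 0.992). Fibronectin (Fn1), the adhesive glycoprotein that fibroblasts assemble into fibrils, had 4.89, 8.56 and 4.81 CPM against 3.04, 1.19 and 10.8 CPM. Periostin (Postn), a matricellular protein of activated fibroblasts, had 3.53, 8.56 and 4.51 CPM against 5.05, 0.936 and 5.44 CPM. In these genes KO 2 and KO 3, both labelled KO, lay at or towards opposite ends.

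The other 4 of this group were reduced less in KO 2. Sparc, a collagen-binding glycoprotein, had 71.8, 89.8 and 71.0 CPM in the controls and 71.9, 35.4 and 81.4 CPM in the KO libraries. In KO 2 it stood at 49.2% of its 6-library median, while Fbln2, Mgp (an inhibitor of calcification) and Fbn1 (fibrillin 1, the backbone of microfibrils) at 51.3%, 43.9% and 43.4%. All 7 genes of the group had negative log2 fold changes, from -0.49 to -0.01 with a median of -0.23, and 0 passed. Without KO 2, 3 were negative and 4 positive, with a median of 0.14.

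The 4 genes of the set for collagen cross-linking and processing were all low in KO 2, at 23.4% to 27.9% of their medians. Genes of collagen synthesis outside the set, given further on, were not low there as a group. Loxl1, a lysyl oxidase that cross-links elastin and collagen, had 3.05, 5.13 and 2.77 CPM in the controls and 2.12, 0.811 and 3.39 CPM in the KO libraries (log2 fold change -0.73, SE 0.42, edgeR adjusted p = 0.744). Pcolce, which speeds the removal of the procollagen C-propeptide, had 6.26, 7.28 and 4.74 CPM against 5.37, 1.62 and 6.32 CPM. Mmp2, a gelatinase, had 4.49, 7.57 and 3.43 CPM against 5.65, 1.19 and 7.27 CPM. The groups overlapped in each, with control 2 highest. Lox, the founding lysyl oxidase, was at 0.312 CPM (5 counts) in KO 2 and 0.791 to 1.98 CPM elsewhere. Of these 4, 0 passed, and their log2 fold changes ran from -0.73 to -0.07 with a median of -0.45. Without KO 2 the median was -0.10, Loxl1 was at -0.39, and Mmp2 was positive at 0.34.

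The protease inhibitors Timp2 and Timp3 were among the genes less reduced in KO 2. Timp3, which is bound to the matrix, had 56.2, 77.4 and 67.7 CPM in the controls and 61.9, 37.0 and 78.2 CPM in the KO libraries. Of its exon bases 21.3% overlap Syn3 on the opposite strand, which had 102 counts in all against 8277 for Timp3. Timp2 had 26.2, 37.3 and 29.4 CPM against 30.1, 18.7 and 42.0 CPM. Timp3 and Timp2 stood at 57.1% and 62.7% of their medians in KO 2, and the groups overlapped. Their log2 fold changes were -0.18 for Timp3 and -0.03 for Timp2, and 0.06 and 0.22 without KO 2. Serpinf1, which encodes the secreted anti-angiogenic factor PEDF, had 4.41, 6.41 and 3.76 CPM against 2.76, 0.686 and 4.22 CPM. It was at 17.2% in KO 2, the KO 3 value lay between controls, and its log2 fold change was the most negative of the 32 (-0.86, SE 0.46, edgeR adjusted p = 0.730). Without KO 2 it was -0.46 (SE 0.28, adjusted p = 0.589).

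The 3 genes listed as fibroblast markers did not share a pattern. Thy1, a surface glycoprotein of fibroblasts that neurons and T cells also carry, had 3.77, 3.50 and 3.56 CPM in the controls and 3.81, 0.749 and 7.12 CPM in the KO libraries. The KO libraries lay on both sides of the tight controls (log2 fold change 0.16, SE 0.53, edgeR adjusted p = 0.952). Gsn, the actin-severing protein gelsolin, which is abundant in fibroblasts but not particular to them, had 114, 121 and 99.8 CPM against 112, 62.0 and 105 CPM (log2 fold change -0.26, and -0.05 without KO 2). Pi16, a marker of adventitial fibroblasts, had 0.722, 0.466 and 0.560 CPM against 1.12, 0.561 and 1.33 CPM. It was the only tested gene not at its lowest in KO 2, since control 2 was lower. Its log2 fold change of 0.85 (SE 0.39, adjusted p = 0.689) rests on few reads, 106 counts over the 6 libraries. Of its exon bases, 222 (3.49%) overlap an antisense gene, AC162182.1, that had 201 counts. Which strand was counted is not given in the sources used here. Reads of Pi16 and of the antisense gene therefore cannot be told apart there.

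**Figure D3:**
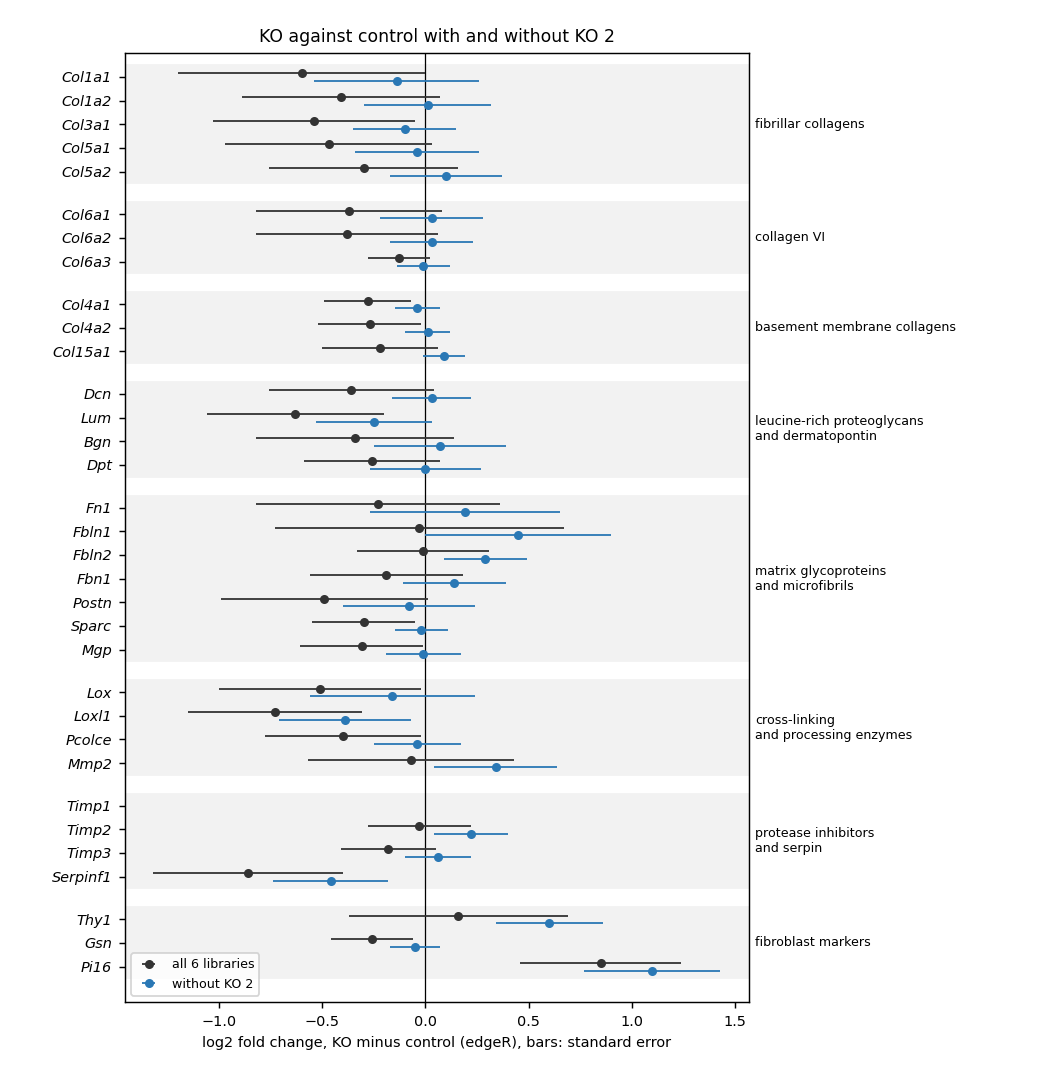
edgeR log2 fold change, KO minus control, with its standard error, for the 32 tested genes over all 6 libraries (black) and without KO 2 (blue). Most black points lie left of 0 and the blue points lie on both sides. Timp1 was not tested and has no point.

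Without KO 2, 2 of the 32 genes had an unadjusted p under 0.05, where 9.32% of all genes did. They were Thy1 (log2 fold change 0.60, SE 0.26, edgeR adjusted p = 0.533) and Pi16 (1.10, SE 0.33, adjusted p = 0.475), and 0 of the 32 passed the adjustment, where 0.0136% of all genes did. KO 1 alone did not stand out from the controls: the 32 genes had a median of 97.2% of their 6-library medians there, beside 102%, 144% and 93.2% in controls 1, 2 and 3. The corresponding median was 27.9% in KO 2 and 121% in KO 3.

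Within the set, composition changed with the library. The 5 fibrillar collagen genes took 16.2%, 20.9% and 12.9% of the set's counts in the controls and 14.6%, 7.69% and 17.5% in the KO libraries. The KO 2 share had a 95% Wilson interval of 7.05 to 8.39%, below the share in each other library. The intervals given here cover counting error only, not the spread between libraries. The 3 basement membrane collagen genes took 29.1%, 22.5% and 32.2% against 28.5%, 33.1% and 26.1%, and their KO 2 share (31.9 to 34.3%) lay close to that of control 3. As shares of the set, 3 of 33 genes had groups that did not overlap, where 7.31% of all genes did when divided by the same sums. That percentage is not a like background. The sums were lowest in KO 2, so the division raises genes there that were not low with the set. Serpinf1 took 0.460 to 0.579% in the controls and 0.181 to 0.409% in the KO libraries, Loxl1 0.339 to 0.463% and 0.214 to 0.328%, and Pi16 0.0421 to 0.0825% and 0.129 to 0.148%. These shares were not tested.

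Per kilobase of exon, the genes spanned a wide range. The length used is that of all exons counted for a gene, not of 1 transcript. It was 6563 bases for Col1a1 and 12426 for its partner Col1a2, so the order of genes depends on it. Gsn was the most abundant, with a mean of 32.4 CPM per kb over the 6 libraries, followed by Sparc at 18.5, Col4a1 at 16.9, Col4a2 at 11.2 and Mgp at 9.75 CPM per kb. Col3a1 stood at 5.20, Col1a1 at 4.52 and Col6a1 at 4.31 CPM per kb, so the fibrillar collagens were below both collagen IV genes in the mean. In control 2 Col1a1 reached 8.76 CPM per kb, while Col4a2 had 11.8. At the low end were Lox at 0.246, Timp1 at 0.191 and Pi16 at 0.125 CPM per kb. The 5 most abundant genes per kb stood at 43.9 to 57.2% of their medians in KO 2.

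Other genes of the matrix pathway were read from 6 lists outside the set, and 0 of their 109 tested genes passed in edgeR, DESeq2 or limma-voom. An unadjusted p under 0.05 was reached by 4, Plod1, Plod3, Itga5 and Cd44, of 109, beside 7.37% of all genes. Of the 109, 72 had negative log2 fold changes, beside 52.2% of all genes, and without KO 2, 40 of 110 did, beside 51%. Without control 2 the count was 54 of 110. Of the collagen synthesis machinery (prolyl and lysyl hydroxylases, chaperones and processing enzymes), 11 of 17 had negative log2 fold changes, with a median of -0.11, and -0.03 without KO 2. Plod3, a lysyl hydroxylase and glycosyltransferase, had 30.2, 25.2 and 26.4 CPM in the controls and 21.3, 22.4 and 22.3 CPM in the KO libraries, which do not overlap (log2 fold change -0.31, SE 0.10, edgeR adjusted p = 0.548). Serpinh1, the collagen-specific chaperone HSP47, had 22.2, 28.3 and 22.1 CPM against 21.4, 12.8 and 23.3 CPM. The list as a group was not low in KO 2, where its median gene stood at 101% of its 6-library median, but Adamts2, the procollagen N-propeptidase, stood at 30.7%.

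Of 15 other basement membrane genes 11 were negative, with a median of -0.24. Lamb1, the laminin beta 1 chain, had 23.2, 23.6 and 21.2 CPM in the controls and 21.4, 9.29 and 22.4 CPM in the KO libraries. As with Col4a1, KO 2 was set apart and the other 5 libraries lay close together. Of 23 other interstitial matrix genes 14 were negative (median -0.06), and versican (Vcan), a large proteoglycan of loose matrix, had 2.25, 3.96 and 2.47 CPM against 2.00, 0.686 and 3.39 CPM. Of 15 matrix proteases 14 were negative (median -0.12). Ctsk, the collagen-cutting cathepsin K, had 1.20, 1.40 and 1.09 CPM against 0.761, 0.187 (3 counts) and 1.45 CPM. KO 2 was the lowest library for Vcan and Ctsk as well. In KO 2 the median gene of these lists stood at 56.0%, 41.4% and 37.0% of its 6-library median. Of 19 matrix receptors 10 were negative and of 20 genes of TGF-beta signalling, the main pathway that drives collagen synthesis in fibroblasts, 12 were negative. The median gene of these lists stood at 86.5% and 64.5% in KO 2. Without KO 2 the median log2 fold change turned positive for the basement membrane (0.07), interstitial matrix (0.16), protease (0.03) and TGF-beta (0.12, from -0.04) lists, and was 0.05 for the receptors. Itga5, the fibronectin receptor chain, had the lowest adjusted p of any of the 109, with 6.18, 5.48 and 5.04 CPM against 3.57, 2.99 and 4.30 CPM (log2 fold change -0.60, SE 0.18, edgeR adjusted p = 0.544).

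**Figure D4:**
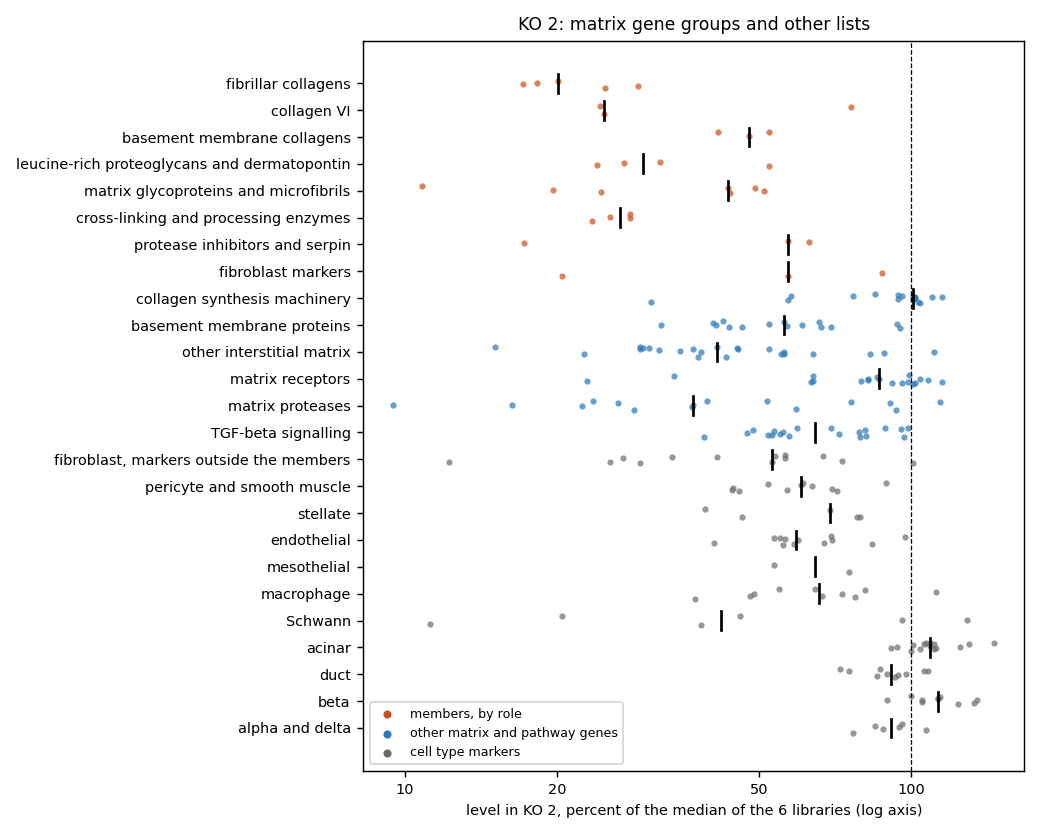
Level of each gene in KO 2 as a percent of its median over the 6 libraries, on a log axis, for the role groups (orange), the other matrix lists (blue) and cell type marker lists (grey). Vertical bars are list medians. The fibrillar collagens (median 20.1%) lie furthest left, the endothelial list (59.3%) between, and the acinar (109%) and beta cell (113%) lists at or right of the dashed line at 100%.

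Markers of the cells that could carry this RNA moved with the matrix genes in KO 2, and their part in the results was not tested. Of 15 fibroblast markers outside the set 13 were tested, 11 were lowest in KO 2, and their median level there was 53.0% of the 6-library median. Their summed level was 148 to 179 CPM in the controls, and 153, 116 and 199 CPM in the KO libraries. Prrx1, a transcription factor of mesenchyme, stood at 27.0% in KO 2, Clec3b, which encodes the secreted protein tetranectin, at 25.4%, and Cd34 at 67.0%. Dpp4, of the same list, stood at 101%. Twist1 and Twist2 were at or near 0 in every library.

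Lists of other stromal cells were also low in KO 2, to a lesser degree than the fibrillar collagens. Of 12 endothelial markers 11 were lowest in KO 2, with a median of 59.3%, and their sum was 460 to 552 CPM in the controls and 501, 304 and 579 CPM in the KO libraries. Pecam1, an endothelial junction protein, had 39.2, 48.9 and 47.0 CPM against 41.8, 26.1 and 56.4 CPM. Pericyte and smooth muscle markers, of which 10 of 11 were lowest in KO 2, had a median of 60.5% and summed to 188 to 249 CPM in the controls against 195, 132 and 284 CPM. The stellate list (5 of 7 tested) stood at 69.0%, macrophages at 65.7% and Schwann cells at 42.2%, and of the 6 mesothelial genes only Msln and Krt19 were tested. The epithelial lists were not low there: acinar genes stood at 109%, duct genes at 91.3%, beta cell genes at 113% and alpha and delta cell genes at 91.4%. No gene of these lists passed the edgeR test between genotypes, and an unadjusted p under 0.05 was reached by 1 gene each of the mesothelial, macrophage, duct and beta cell lists, beside 7.37% of all genes. The lowest adjusted p was that of Msln, the mesothelial gene mesothelin (log2 fold change -0.98, SE 0.21, edgeR adjusted p = 0.268). Msln had 24.1, 34.3 and 38.2 CPM in the controls and 16.2, 12 and 20.7 CPM in the KO libraries. The mesothelial genes Upk3b, Wt1, Lrrn4 and Upk1b, which were not tested, had at most 6 counts in any library.

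The genes outside the set whose profile over the 6 libraries lay nearest to it were found by the root mean square difference of centred log2 CPM from the median profile of the 32 genes, among 11639 tested genes whose mean log2 CPM was 1 or more. The nearest were Cilp (0.126), Igfbp4 (0.129), Icam1 (0.137), Vcan (0.147), Svep1 (0.151), Prelp (0.154), Adamts15 (0.172), Gdf10 (0.172), Ecm1 (0.174) and Ptn (0.175), where the median of that pool was 0.749. Cilp, a secreted protein of the interstitial matrix, had 9.63, 14.4 and 7.58 CPM in the controls and 7.41, 2.93 and 11.8 CPM in the KO libraries. Igfbp4, a secreted binding protein of insulin-like growth factors, had 16.0, 18.9 and 14.7 CPM against 13.7, 4.93 and 18.3 CPM. Both had KO 2 lowest, with control 2 and KO 3 the highest libraries. Within the set Pcolce (0.115), Col6a2 (0.138) and Col6a1 (0.145) lay nearest to the median profile, and Pi16 (0.765) and Fbln1 (0.682) farthest. The likeness measure covers 6 libraries only and was not tested.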

How the data were processed

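The authors deposited raw counts of reads per gene, in 1 table for all 6 libraries. The submitters' processing notes name STAR 2.7.9 and featureCounts 2.0.0. Annotation release, strand setting and multi-mapping treatment were not given in the sources used here. Of the 33 members 11 share exon bases with another gene, 2 of them over 20% of their exon length. Counts from the shared bases are uncertain. Symbols and coordinates came from GENCODE M21 (GRCm38), which 54349 of 55401 identifiers matched in version, start and end. The members and all lists were chosen with earlier results of these data known.

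Counts were tested with edgeR 4.0.16 (glmQLFit and glmQLFTest, R 4.3.3) after TMM normalization, with genotype alone in the model. The filter was filterByExpr (minimum count 10, minimum total 15). Two-sided p-values were adjusted by the Benjamini-Hochberg method across the 14212 genes tested, and an adjusted p of 0.05 was the threshold. Log2 CPM for the likeness measure used a prior count of 2. The rule for naming genes took all members, the 3 genes of smallest p of each pathway list, fixed cell type markers and the 10 nearest profiles, of which some are not described. Adamts2, Prrx1, Clec3b, Cd34, Dpp4, Twist1, Twist2, Upk3b, Wt1, Lrrn4, Upk1b and the ribosomal locus were singled out after their values were seen. Alternatives were RLE normalization, no filter, DESeq2 1.42.0, limma-voom (limma 3.58.1), the replicate number as a block, acinar genes removed and each library left out. No pair of libraries agreed within sampling noise (lowest chi-square per degree of freedom 14.5). The test script was tested on simulated data.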

Additional observations from a re-analysis of the deposited data

How the results depend on the processing

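The number of the 32 genes that passed was 0 under every alternative run except that without the filter on low counts, where it was 4 (Col1a1, Col1a2, Col3a1 and Serpinf1). In that fit 1 of 114 pathway genes passed, Itgb4, where 1.14% of all genes did. Under every other run 0 of the pathway genes passed. The median log2 fold change of the 32 genes was -0.30 with RLE normalization, without the filter and with acinar genes removed, -0.31 with DESeq2 and -0.41 with limma-voom. With 1 library left out it ran from -0.64 (without KO 3) to 0.007 (without KO 2). The summed level differed by -182 CPM, by -183 to -247 CPM under other scalings, and by -323 to 3.9 CPM with 1 library left out, the latter without KO 2. The direction of 16 genes changed without KO 2, of 9 without control 2, of 3 without KO 1 and of 1 without KO 3.

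Same-numbered libraries did not deviate together (correlations 0.16, -0.16 and 0.14), so the numbers were not taken as pairs. With the replicate number as a block the median was -0.37, 0 of the 32 genes and 36 of all genes passed (10 without it), and the summed difference was -182 CPM (exact sign-flip p = 0.75, smallest possible 0.25).

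With 1 library left out, the log2 fold changes that changed sign ran over these ranges: Col1a2 -0.97 to 0.01, Col5a2 -0.63 to 0.10, Col6a1 -0.84 to 0.03, Col6a2 -0.84 to 0.03, Col4a2 -0.51 to 0.01, Col15a1 -0.41 to 0.09, Dcn -0.70 to 0.03, Bgn -0.98 to 0.07, Dpt -0.56 to 0.06, Fn1 -1.45 to 0.19, Fbln1 -1.17 to 0.45, Fbln2 -0.47 to 0.29, Fbn1 -0.64 to 0.14, Mmp2 -0.51 to 0.34, Timp2 -0.33 to 0.22, Timp3 -0.43 to 0.06, Thy1 -0.58 to 0.60, and Col12a1 -0.03 to 0.86. Members that kept their sign also moved, among them Col1a1 (-1.37 to -0.10), Serpinf1 (-1.39 to -0.46), Loxl1 (-1.23 to -0.39), Col5a1 (-1.15 to -0.04) and Lum (-1.10 to -0.25), each most negative without KO 3. Thy1 was also negative with limma-voom (-0.16) and with the replicate block (-0.10). What in these libraries sets the sign was not tested.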
